A study of Mus musculus with 8 samples.

Results

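The growth hormone, STAT5 and IGF1 axis is followed here through 10 genes of mouse liver, taken by gene symbol from a table of 55421 transcripts. All 10 symbols were found, each in 1 row. They are the receptor Ghr, the transcription factors Stat5a and Stat5b, the circulating products Igf1 and Igfals, the feedback inhibitors Socs2 and Cish, the repressors Bcl6 and Cux2, and Onecut1, a liver transcription factor. Of these, 9 passed the filter on low counts and were tested, and Cux2 did not.

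The livers came from male C57BL/6J mice bought at 4 weeks of age and acclimated for 4 weeks before a high-fat diet with 45% of its calories from fat. Every other day, between ZT8 and ZT10, they received by gavage either PBS vehicle (control, a cohort of 11) or 100 mg/kg of sudachitin (a cohort of 12). ZT is zeitgeber time, the hours after lights on, and sudachitin is a plant flavonoid that carries several methoxy groups. The mice were 30 weeks old at tissue collection, which fell at ZT6, in the light phase, or ZT18, in the dark phase. The RNA libraries fell into 4 groups of 2: control ZT6, control ZT18, sudachitin ZT6 and sudachitin ZT18. All 8 mice therefore shared the diet and the handling, and no group on normal chow is part of these samples. The titles name a mouse for each library, and paired libraries of a group were treated as different animals.

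Growth hormone reaches the liver in pulses in male rodents and more evenly in females. It binds the receptor encoded by Ghr, whose associated kinase JAK2 phosphorylates STAT5. STAT5 enters the nucleus and binds DNA at sites of the form TTCNNNGAA, from which it raises Igf1, Igfals, Socs2 and Cish and lowers Bcl6. IGF1 and IGFALS are secreted into blood, where they form a complex with an IGF binding protein. The proteins CIS (from Cish) and SOCS2 dampen the receptor signal, BCL6 represses STAT5 target genes at related sequences, and CUX2 is a repressor that is abundant in female and scarce in male mouse liver.

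The sequences of 3 members are shown because theirs were the promoter windows that held the STAT5 motif letters. RefSeq promoter windows (build GRCm38.p6) of 300 bases, 250 before and 50 after a start site, were available for 9 members in 16 windows; Socs2 had no entry. The search was for TTCNNNGAA, which reads the same on both strands, and overlapping matches would have been counted separately. Of all 32851 windows in the table, 8.3% held at least 1 match, 0.457% at least 2 and 0.0335% at least 3. Among the members, 5 windows of 3 genes (Cish, Bcl6 and Igfals) held a match. A match is a run of letters and no measured binding site. In the lines below the motif is in capitals and each sequence is read 5′ to 3′ on the strand of its gene.
Cish, chr9:107296654-107296683, plus strand: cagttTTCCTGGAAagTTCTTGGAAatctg
Bcl6, chr16:23981433-23981461, minus strand: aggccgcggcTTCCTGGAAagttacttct
Bcl6, chr16:23981387-23981415, minus strand: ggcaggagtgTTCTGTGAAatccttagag
Bcl6, chr16:23981353-23981381, minus strand: atcgactacgTTCCGGGAAtgagagggct
Bcl6, chr16:23988952-23988980, minus strand: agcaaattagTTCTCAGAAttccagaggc
Igfals, chr17:24877598-24877626, plus strand: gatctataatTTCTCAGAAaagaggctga
Igfals, chr17:24878163-24878191, plus strand: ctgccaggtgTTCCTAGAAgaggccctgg
The 2 Cish matches run from base 1 to base 20 of the transcript that begins at 107296659, in an untranslated exon. At Bcl6, 3 of the 4 matches stand before the start site at 23981283, inside an intron of the longer transcript, with their first bases at -168, -122 and -88. The remaining Bcl6 match begins at -118 from the start at 23988852, upstream of the gene. The Igfals matches begin at -236 from the start at 24877844 and at -58 from the start at 24878231, both before the deposited transcript's start and in introns of the longer gene annotated by GENCODE.

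From 13914116 to 17759630.5 counts per library fell in exons. The control ZT18 replicate 1 library stood apart from the rest: it held the highest or lowest value of the 8 libraries for 38.2% of the 14506 tested transcripts, against 17.4% to 27.7% in the others. Results that rest on it are given with and without it. Hepatocyte markers summed to 77300 to 97300 CPM (counts relative to library size, scaled with TMM factors) in the 8 livers, and Y-linked genes were detected in every library while Xist stayed at or below 0.47 CPM. Macrophage markers summed to 87 to 210 CPM, with the highest value in sudachitin ZT6 replicate 2, stellate cell markers to 233 to 317, endothelial markers to 108 to 145, cholangiocyte markers to 22.9 to 76.4 and lymphocyte markers to 1.84 to 4.5. None of the 4 neutrophil markers passed the filter. The part of these cell types in the results that follow was not tested, and in bulk tissue fewer cells of a type and less RNA per cell cannot be told apart.

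On a per-length scale (mean FPKM over the 8 libraries) Ghr was the most abundant member at 63.8, followed by Igf1 at 58.1 and Igfals at 16.6. Ghr and Igf1 overlapped, with Ghr at 54.7 to 70.9 FPKM and Igf1 at 42.9 to 71.4 FPKM over the single libraries. Stat5b (5.94), Bcl6 (4.63), Onecut1 (4.06), Socs2 (2.91), Stat5a (2.18) and Cish (2.17) formed a lower tier whose neighbours in this order overlapped over the single libraries. Igfals, at 14.1 to 19.9 FPKM, overlapped neither Igf1 nor Stat5b (5.12 to 7.03), and Cux2 was lowest, with a mean of 0.0107. The members differed widely in how much they varied between livers. The highest library exceeded the lowest by 1.22 times for Ghr, 1.29 for Stat5b, 1.47 for Stat5a, 1.55 for Igfals and 1.79 for Igf1, but by 7.41 times for Bcl6, 16.4 for Onecut1, 20.1 for Socs2 and 24.4 for Cish (ratios of CPM).

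**Figure D1:**
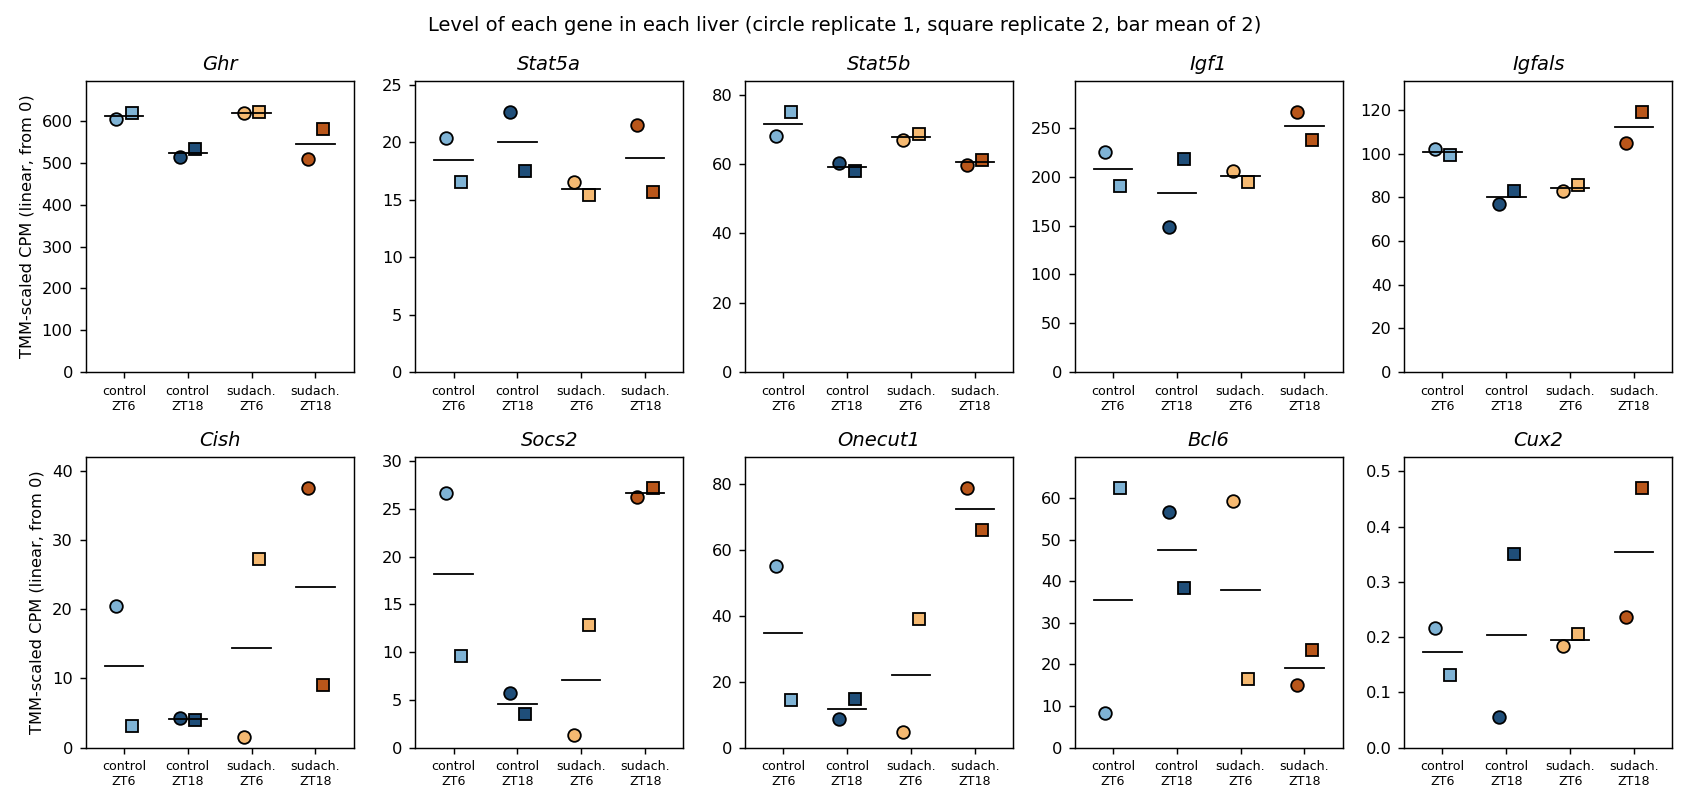
TMM-scaled CPM (linear axis from 0) of the 10 genes in each liver by group, with a circle for replicate 1, a square for replicate 2 and a bar at their mean. Ghr, Stat5a and Stat5b differed little between livers, whereas Cish, Socs2, Onecut1 and Bcl6 differed widely between the 2 mice of each ZT6 group. At ZT18 only Cish did so, in the sudachitin livers.

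Ghr, the growth hormone receptor (chromosome 15, 3317760 to 3583230, minus strand, GRCm38), was read at 604 and 618 CPM at ZT6 and 515 and 533 at ZT18 in control livers, with 619 and 621 at ZT6 and 508 and 580 at ZT18 under sudachitin. All 4 ZT6 livers were above all 4 ZT18 livers. The difference over both treatments was -0.21 ± 0.08 (log2, SE) and did not pass the edgeR test (adjusted p = 0.19). Leaving out any 1 library kept it between -0.25 and -0.17.

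Stat5b, the main STAT5 form of liver (chromosome 11, 100780731 to 100850724, minus strand), was at 68.0 and 75.0 CPM at ZT6 and 60.4 and 58.0 at ZT18 in control livers, with 67.1 and 68.7 at ZT6 and 59.9 and 61.2 at ZT18 under sudachitin. Here too the ZT6 and ZT18 livers did not overlap. The ZT18 minus ZT6 difference was -0.22 ± 0.07 (log2, SE; edgeR adjusted p = 0.14) over both treatments. These were the 2 of 9 members whose 4 ZT18 and 4 ZT6 libraries were fully separated, where 13% of all tested transcripts were separated and 7.02% with the lower values at ZT18.

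Stat5a, its close relative (chromosome 11, 100859351 to 100885169, plus strand), lay at 20.4 and 16.5 CPM at ZT6 and 22.6 and 17.5 at ZT18 in control livers, with 16.5 and 15.4 at ZT6 and 21.5 and 15.7 at ZT18 under sudachitin. The groups overlapped in every comparison of time or treatment. Per length, Stat5b was 5.94 and Stat5a 2.18 FPKM on average. The transcripts of the pair share sequence: 608 of the 3839 stretches of 50 bases in Stat5a (15.8%) also occur in Stat5b, where they are 12.1% of 5013, and the handling of reads that fit both is not given in the sources used here. Stat5a also overlaps Stat3 on the opposite strand by 72 bases of exon, and the libraries carry no strand.

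Igf1, the growth factor that mediates much of the growth hormone response (chromosome 10, 87859258 to 87931801, plus strand), was at 225 and 190 CPM at ZT6 and 148 and 218 at ZT18 in control livers, with 206 and 195 at ZT6 and 266 and 238 at ZT18 under sudachitin. The highest livers were the sudachitin ZT18 pair and the lowest was control ZT18 replicate 1. The group means were 183 ± 48.9 CPM in control ZT18 and 252 ± 19.2 in sudachitin ZT18 (SD, n = 2 each). The difference at ZT18 was 0.46 ± 0.19 (log2, SE; edgeR adjusted p = 0.74), and 0.21 without control ZT18 replicate 1.

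Igfals, the acid-labile subunit that holds IGF1 in the circulating complex (chromosome 17, 24878258 to 24882010, plus strand), showed a narrower spread between mice. Its levels were 102 and 99.3 CPM at ZT6 and 76.9 and 83.0 at ZT18 in control livers, with 82.9 and 85.8 at ZT6 and 105 and 119 at ZT18 under sudachitin. Control livers were lower at ZT18 than at ZT6, and sudachitin livers were higher. The ZT18 minus ZT6 difference was -0.34 ± 0.12 in control (edgeR adjusted p = 0.3) and 0.41 ± 0.12 in sudachitin livers (adjusted p = 0.21), in log2 with SE. At ZT18 sudachitin exceeded control by 0.49 ± 0.12 (adjusted p = 0.58), and by 0.44 without control ZT18 replicate 1. None of these passed the test.

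Cish (chromosome 9, 107296026 to 107301987, plus strand) encodes CIS, which competes with STAT5 at the activated receptor. It was read at 20.4 and 3.14 CPM at ZT6 and 4.35 and 4.0 at ZT18 in control livers, with 1.54 and 27.3 at ZT6 and 37.5 and 9.04 at ZT18 under sudachitin. The high livers were control ZT6 replicate 1, sudachitin ZT6 replicate 2 and both sudachitin ZT18 livers; the fourth highest stood at 9.04 and the fifth at 4.35. At ZT6 each treatment thus held 1 high and 1 low mouse. Cish exons overlap the antisense transcripts Gm17041 by 479 bases and Gm17040 by 103, whose reads cannot be told apart from its own.

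Socs2 (chromosome 10, 95411490 to 95416857, minus strand) encodes a suppressor of cytokine signalling that limits growth hormone action. The control ZT6 livers gave 26.7 and 9.61 CPM, control ZT18 5.69 and 3.51, sudachitin ZT6 1.35 and 12.9 and sudachitin ZT18 26.2 and 27.2. The same 4 livers as for Cish were the highest, with the fourth at 12.9 and the fifth at 9.61. The sudachitin ZT18 mice agreed closely for Socs2, in contrast to Cish, for which they differed by 4.15 times.

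Onecut1 (chromosome 9, 74861921 to 74891781, plus strand) encodes HNF6, a liver transcription factor known to respond to growth hormone. It stood at 55.0 and 14.6 CPM at ZT6 and 8.59 and 14.8 at ZT18 in control livers, with 4.79 and 39.0 at ZT6 and 78.7 and 66.1 at ZT18 under sudachitin. Again these 4 livers were the highest, at 39.0 or more, and the other 4 were at 14.8 or less. A lincRNA, Gm20649, overlaps 2171 bases of its exons on the same strand.

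Bcl6 (chromosome 16, 23965052 to 23988852, minus strand), the repressor, ran the other way. Its levels were 8.42 and 62.4 CPM at ZT6 and 56.6 and 38.3 at ZT18 in control livers, with 59.3 and 16.4 at ZT6 and 15.0 and 23.4 at ZT18 under sudachitin. The 4 livers that were highest for Cish, Socs2 and Onecut1 were the 4 lowest for Bcl6, at 23.4 or less, and the other 4 were at 38.3 or more. By contrast, 3 of the 4 highest livers for Cish were among the 4 highest for Igf1 and for Igfals, and 2 of 4 for Ghr, Stat5a and Stat5b. This shared order is a description of 8 livers from 1 experiment, seen after the values were known, and no p is given for it.

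**Figure D2:**
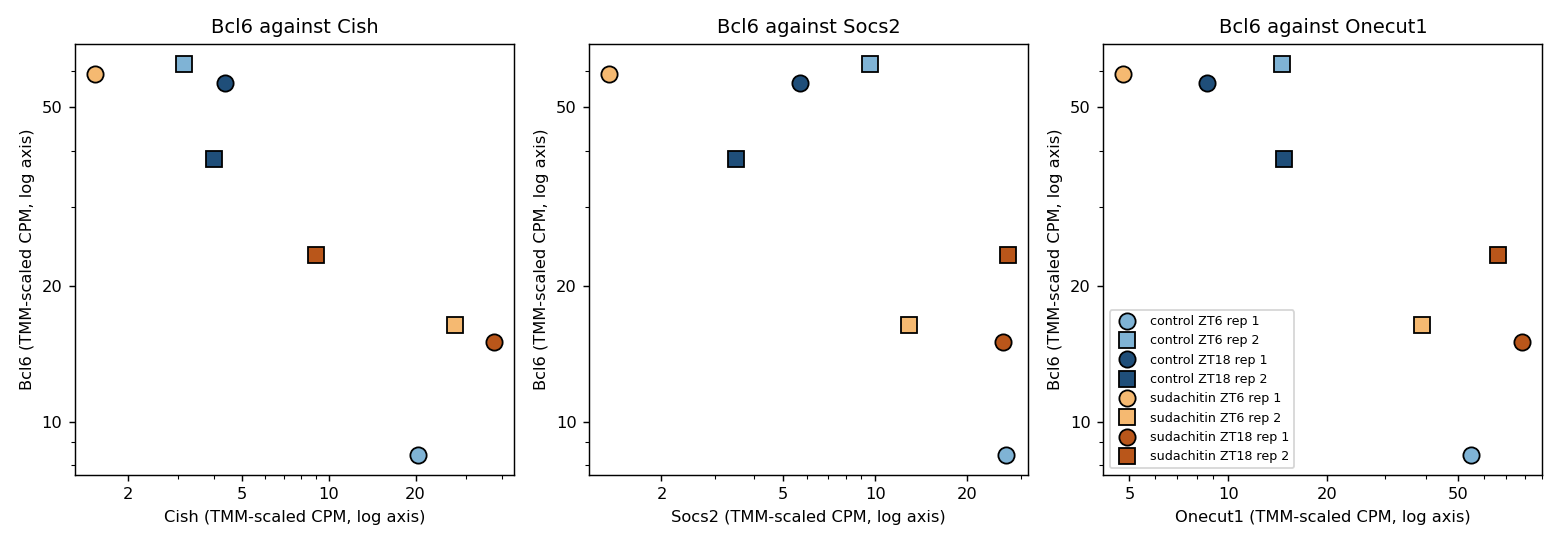
Bcl6 (vertical) against Cish, Socs2 and Onecut1 (horizontal) in the 8 livers, in TMM-scaled CPM on log axes, with colour for the group and circle or square for replicate 1 or 2. The livers with Bcl6 at 23.4 CPM or less were the 4 with the most Cish, Socs2 and Onecut1, and they came from 3 of the 4 groups.

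Cux2 (chromosome 5, 121856366 to 122049851, minus strand) was close to the limit of detection, with 1 to 8 counts per library. The counts were 3 and 2 at ZT6 and 1 and 5 at ZT18 in control livers, with 3 and 3 at ZT6 and 4 and 8 at ZT18 under sudachitin. At these counts no difference between groups was detectable.

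At ZT6 the 2 mice of a group differed more for Cish, Socs2, Onecut1 and Bcl6 than for nearly all other genes. Over the 9545 transcripts with a mean of at least 5 CPM, the median fold between the 2 mice was 1.1 in control ZT6, 1.16 in control ZT18, 1.1 in sudachitin ZT6 and 1.13 in sudachitin ZT18. In control ZT6 the fold was 7.41 for Bcl6, reached by 0.0524% of those transcripts, 6.51 for Cish (0.0629%), 3.76 for Onecut1 (0.126%) and 2.78 for Socs2 (0.283%). In sudachitin ZT6 it was 17.8 for Cish (0.0838%), 9.53 for Socs2 (0.105%), 8.14 for Onecut1 (0.115%) and 3.62 for Bcl6 (0.293%). The 2 high mice of the ZT6 groups were replicate 1 of control and replicate 2 of sudachitin, and the titles do not say that replicate numbers link mice between groups.

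At ZT18 the mice of a group were more alike for Onecut1, Socs2 and Bcl6. In control ZT18 the folds between mice were 1.72 for Onecut1, 1.62 for Socs2, 1.48 for Bcl6 and 1.09 for Cish, all inside the 95th percentile of 1.81 over all transcripts. In sudachitin ZT18 only Cish, at 4.15, passed the 95th percentile of 1.57 among these 4, with Bcl6 at 1.56, Onecut1 at 1.19 and Socs2 at 1.04. Ghr differed between the mice of a group by 1.0 to 1.14 times, Stat5b by 1.02 to 1.1 and Igfals by 1.03 to 1.14.

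**Figure D3:**
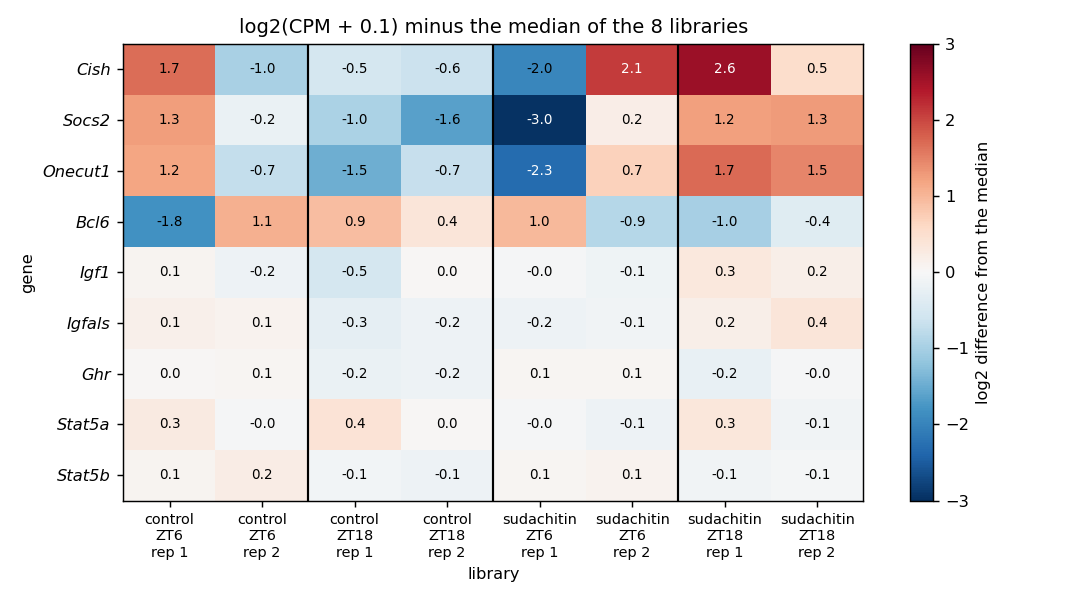
log2(CPM + 0.1) of the 9 tested genes (rows) in the 8 livers (columns), each minus the gene's median over the livers, with the value printed in each cell. Cish, Socs2 and Onecut1 were above 0 in control ZT6 replicate 1, sudachitin ZT6 replicate 2 and both sudachitin ZT18 livers, and Bcl6 was below 0 in the same columns.

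Sudachitin was compared with control at ZT6 to ask whether liver expression differed in the light phase. No member passed: 0 of 9 were called by edgeR and 0 had an unadjusted p under 0.05, where 0% of the 14506 tested transcripts were called and 2.12% had an unadjusted p under 0.05. DESeq2 called 0 of the 9 too. The largest differences were those of Socs2, -1.36 ± 0.77, and Onecut1, -0.67 ± 0.81 (log2, SE; adjusted p = 1 for both). Cish differed by 0.29 ± 1.13 and Bcl6 by 0.09 ± 0.79. These values turned on single mice: without control ZT6 replicate 1 Socs2 stood at -0.45, Bcl6 at -0.72 and Onecut1 at 0.57, and without sudachitin ZT6 replicate 2 Socs2 stood at -3.73 and Cish at -2.92. Without sudachitin ZT6 replicate 1 Socs2 was at -0.48. The 2 members whose groups did not overlap were Ghr (0.02 ± 0.12) and Igfals (-0.26 ± 0.12), 2 of 9 where 31.7% of all transcripts did not overlap. The median over the 9 was -0.07, against -0.01 over all tested transcripts.

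In the dark phase, at ZT18, sudachitin livers held more Cish, Socs2, Onecut1, Igf1 and Igfals and less Bcl6 than control livers, with no overlap between the mice. These were 6 of 9 members, where 30.8% of all tested transcripts did not overlap. The differences were 2.64 ± 0.86 for Onecut1, 2.52 ± 0.79 for Socs2, 2.47 ± 1.21 for Cish and -1.31 ± 0.81 for Bcl6 (log2, SE). None passed: the edgeR adjusted p-values were 0.71, 0.71, 0.79 and 0.83. Ghr (0.05 ± 0.12), Stat5b (0.03 ± 0.11) and Stat5a (-0.11 ± 0.19) lay near 0.

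In that comparison 0 of 9 members were called, where 0.0138% of all tested transcripts were (2 of 14506), and 4 members (Igf1, Igfals, Socs2 and Onecut1) had an unadjusted p under 0.05, as 6.51% of all did. DESeq2 called 0 of the 9. The median over the members was 0.46 with a median over all transcripts of 0. Without control ZT18 replicate 1 the member median was 0.21, with Socs2 at 2.93, Cish at 2.54, Onecut1 at 2.30 and Bcl6 at -0.99. Without sudachitin ZT18 replicate 1 Cish stood at 1.11. Sudachitin livers at ZT18 were also the only group in which both mice were among the high livers described above, and for Cish the fold between the groups at ZT18 was 5.55, beside 17.8 between the 2 sudachitin ZT6 mice.

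**Figure D4:**
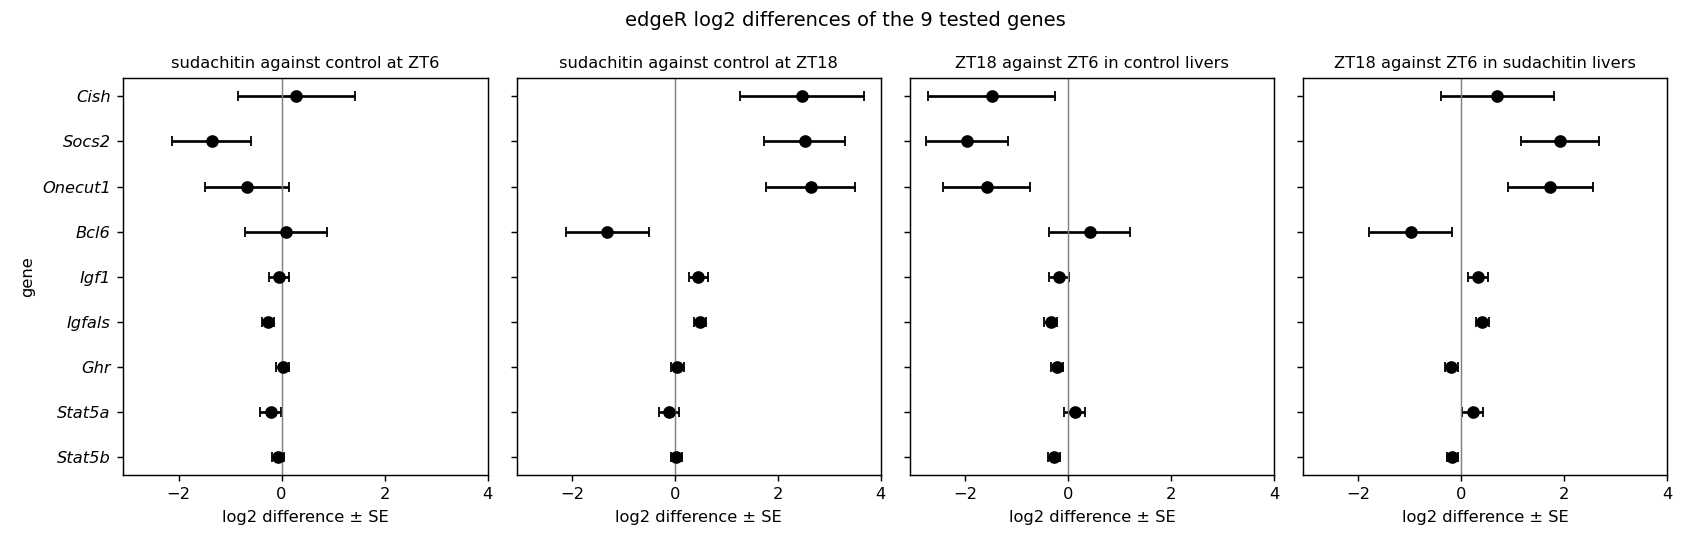
edgeR log2 differences (points) with SE (bars) of the 9 tested genes in the 4 pairwise comparisons of 2 against 2 livers. The bars of Cish, Socs2, Onecut1 and Bcl6 are several times wider than those of Ghr, Stat5b and Igfals, and no point passed the test.

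Within each treatment ZT18 was compared with ZT6, a comparison of dark with light phase. In control livers Socs2 was at -1.96 ± 0.79, Onecut1 at -1.58 ± 0.85 and Cish at -1.48 ± 1.23, while Bcl6 was at 0.42 ± 0.79 (log2, SE, ZT18 minus ZT6). The adjusted p-values ran from 0.3 for Igfals to 0.87 for Bcl6, and edgeR called 0 of 9, with 3 (Igfals, Socs2 and Stat5b) at an unadjusted p under 0.05. Of all transcripts, 0.524% were called and 12.9% had an unadjusted p under 0.05. DESeq2 called 0 of the 9. The groups did not overlap for Ghr, Igfals, Socs2 and Stat5b, all lower at ZT18, which is 4 of 9 where 42.4% of all transcripts did not overlap and 21.1% were lower at ZT18 without overlap. Without control ZT6 replicate 1 Cish was at 0.41, Onecut1 at -0.34, Socs2 at -1.05 and Bcl6 at -0.40, and without control ZT18 replicate 1 Igf1 was at 0.06 (-0.18 ± 0.19 with it).

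In sudachitin livers the sign was opposite for Socs2, Onecut1, Cish and Bcl6, though the times overlapped for Cish and Bcl6. Socs2 was at 1.92 ± 0.76, Onecut1 at 1.73 ± 0.82 and Cish at 0.70 ± 1.1, with Bcl6 at -0.98 ± 0.81. Igf1 was at 0.33 ± 0.19 and Igfals at 0.41 ± 0.12. edgeR called 0 of 9 (smallest adjusted p = 0.21, Igfals), with 2 (Igfals and Socs2) at an unadjusted p under 0.05, while 0.186% of all transcripts were called and 12.6% had an unadjusted p under 0.05. DESeq2 called 0 of the 9. For 6 of 9 members the times did not overlap (Igf1, Igfals, Socs2 and Onecut1 higher, Ghr and Stat5b lower at ZT18), where 45.9% of all transcripts did not overlap. Without sudachitin ZT6 replicate 1 Cish was at -0.25, Bcl6 at 0.22, Socs2 at 1.04 and Onecut1 at 0.88. Without sudachitin ZT6 replicate 2 Cish was at 3.91, Socs2 at 4.29 and Onecut1 at 3.90.

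The test of the difference between these time effects called no transcript, 0% of 14506, while 3.78% had an unadjusted p under 0.05. Among the members Socs2 gave 3.88 ± 1.1, Onecut1 3.31 ± 1.18, Cish 2.18 ± 1.65 and Igfals 0.75 ± 0.17 (log2, SE), each with an edgeR adjusted p of 1. Igfals, Socs2 and Onecut1 had an unadjusted p under 0.05, and DESeq2 called 0 of the 9. The median over the 9 members was 0.51 and over all transcripts 0. The comparisons at ZT18, in control livers and of the interaction share the control ZT18 libraries, so their values are given side by side and not counted as separate evidence.

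Averaged over both times, sudachitin minus control was 1.33 ± 0.89 for Cish, 0.97 ± 0.86 for Onecut1, 0.56 ± 0.9 for Socs2 and -0.60 ± 0.6 for Bcl6, all with an edgeR adjusted p of 1. On leaving out 1 library Cish ran from 0.61 (without sudachitin ZT18 replicate 1) to 2.37 (without control ZT6 replicate 1), Onecut1 from 0.36 (without control ZT18 replicate 1) to 1.79 (without control ZT6 replicate 1) and Bcl6 from -1.23 (without sudachitin ZT6 replicate 1) to -0.21 (without control ZT6 replicate 2). edgeR called 0 of 9 members, and 0 had an unadjusted p under 0.05, where 0.0207% of all transcripts were called and 4.41% had an unadjusted p under 0.05; DESeq2 called 0 of the 9. No member separated all 4 sudachitin from all 4 control livers, as 1.83% of all transcripts did. For time over both treatments edgeR and DESeq2 each called 0 of the 9 members, where edgeR called 3.68% of all transcripts. Ghr and Stat5b had an unadjusted p under 0.05, as 20.4% of all transcripts did.

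Other genes of growth hormone and IGF signalling were taken from a list of 23, of which 21 were tested (Igf2 and Socs1 were not). edgeR called 0 of 21 in each of the 4 pairwise comparisons. Unadjusted p-values under 0.05 numbered 1 for sudachitin at ZT6, 5 for sudachitin at ZT18, 3 for time in control and 6 for time in sudachitin livers, beside 2.12%, 6.51%, 12.9% and 12.6% of all tested transcripts. The median differences were 0.03, 0.16, -0.08 and -0.07 in that order (log2), beside -0.01, 0, 0.02 and 0.01 over all tested transcripts.

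Irs2, an adaptor of the insulin and IGF1 receptors, was at 16.6 and 18.4 CPM at ZT6 and 15.8 and 15.0 at ZT18 in control livers, with 12.9 and 14.0 at ZT6 and 40.9 and 25.1 at ZT18 under sudachitin. The sudachitin ZT18 mice were the highest 2 of the 8. The difference was 1.30 ± 0.21 for time in sudachitin livers (log2, SE; edgeR adjusted p = 0.065) and 1.10 ± 0.21 for sudachitin at ZT18 (adjusted p = 0.39). Without control ZT18 replicate 1, a library outside the first of these comparisons, 22 genes of the list were tested and 2 rose with time in sudachitin livers: Irs2 by 1.28 (edgeR adjusted p = 0.036) and Igfbp1 by 1.81 (adjusted p = 0.042). That fit called 177 of all transcripts in this comparison, against 27 with the library.

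Igfbp1, a binding protein that sequesters IGF1, was at 32.0 and 32.4 CPM at ZT6 and 54.1 and 16.8 at ZT18 in control livers, with 20.2 and 32.7 at ZT6 and 126 and 61.2 at ZT18 under sudachitin. It too was highest in the sudachitin ZT18 mice, at 1.83 ± 0.52 over sudachitin ZT6 (adjusted p = 0.2). Socs3, the cytokine-induced relative of Socs2, was at 4.25 and 5.29 CPM at ZT6 and 3.01 and 2.25 at ZT18 in control livers, with 7.81 and 9.07 at ZT6 and 7.59 and 4.87 at ZT18 under sudachitin. Sudachitin and control mice did not overlap for Socs3 at either time, with 0.82 ± 0.27 at ZT6 (adjusted p = 1) and 1.23 ± 0.28 at ZT18 (adjusted p = 0.53). Its order over the livers was therefore another than that of Socs2.

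For time over both treatments edgeR called 0 of these 21 genes, with 6 at an unadjusted p under 0.05, beside 3.68% and 20.4% of all tested transcripts. Without control ZT18 replicate 1 some genes of the list passed. Foxa1, a pioneer transcription factor, rose by 0.76 (adjusted p = 0.023), while Igf2r, which clears IGF2, fell by 0.45 (adjusted p = 0.02) and Prlr, the prolactin receptor, fell by 0.57 (adjusted p = 0.027), all in log2. Igf2r and Prlr are named after their values were seen. In that fit 1048 of all transcripts were called, against 534 with the library.

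Some liver genes are known to follow the male or female pattern of growth hormone secretion, and 2 lists of them were described in the same libraries. Of 24 male-biased genes, all tested, 21 were at their lowest of the 8 livers in control ZT18 replicate 1, and none was at its highest there. Of all tested transcripts, 18.6% were at their lowest and 19.7% at their highest in that liver. Summed, the male-biased genes came to 7770 CPM in that liver and to 17000 to 27200 in the other 7. The median over the list, as log2(CPM + 0.1) minus the gene's median over the 8 livers, was -1.78 in that liver and between -0.74 (sudachitin ZT6 replicate 2) and 0.41 in the others.

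Hsd3b5, a male-specific steroid dehydrogenase, was at 156 and 266 CPM at ZT6 and 0.837 and 86.4 at ZT18 in control livers, with 222 and 110 at ZT6 and 79.2 and 171 at ZT18 under sudachitin. Cyp4a12a, a male-biased fatty acid hydroxylase, was at 233 and 195, 112 and 204, 114 and 36.9 and 198 and 221 CPM in the same order of groups. Both genes were low in control ZT18 replicate 1, and Cyp4a12a was lower still in sudachitin ZT6 replicate 2.

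Of 31 female-biased genes, 21 were tested, and 12 of these were at their highest in control ZT18 replicate 1, as were 19.7% of all tested transcripts. Another 4 of the 21 were at their highest in control ZT18 replicate 2, as were 12.5% of all tested transcripts. Summed, the female-biased genes came to 973 CPM in control ZT18 replicate 1 and to 105 to 223 elsewhere. Their list median, on the scale used for the male-biased genes, was 1.32 in control ZT18 replicate 1 and 0.55 in control ZT18 replicate 2. In the other livers it lay between -0.56 and 0.12. Cyp2b9, a female-biased cytochrome P450, was at 8.85 and 2.88 CPM at ZT6 and 309 and 5.34 at ZT18 in control livers, with 1.29 and 26.5 at ZT6 and 1.96 and 0.352 at ZT18 under sudachitin. Cyp2a4 was at 50.4 CPM in control ZT18 replicate 1 and at 0.936 to 2.19 in the other 7. For Cux2, the female-enriched repressor, the same liver had 1 count. Its Cish, Socs2, Onecut1 and Bcl6 were within 1.72 times of those of control ZT18 replicate 2, and its Igf1 was the lowest of the 8.

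**Figure D5:**
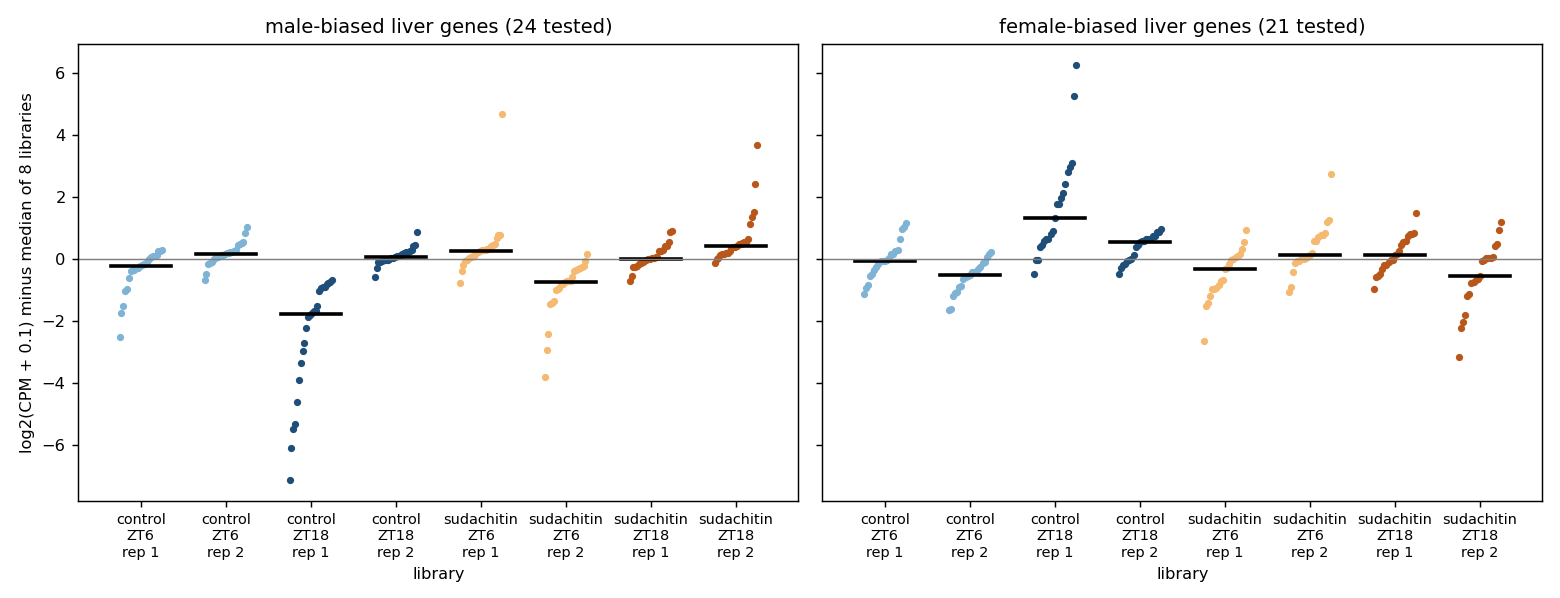
log2(CPM + 0.1) minus the gene's median over the 8 livers, for the 24 male-biased and 21 female-biased genes tested (points, sorted within each liver), with a bar at the median of the list. The control ZT18 replicate 1 liver has a median of -1.78 for male-biased and 1.32 for female-biased genes, and control ZT18 replicate 2 has 0.07 and 0.55.

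By group, no male-biased gene was called by edgeR in the 4 pairwise comparisons, with unadjusted p-values under 0.05 in 2, 2, 1 and 4 of 24 (sudachitin at ZT6, sudachitin at ZT18, time in control, time in sudachitin livers). Over all tested transcripts these shares were 2.12%, 6.51%, 12.9% and 12.6%. Their median difference was -0.17, 1.02, -0.43 and 0.29 in that order. The values that involve control ZT18 rested on 1 liver: without control ZT18 replicate 1 the median was 0.25 for sudachitin at ZT18 and 0.10 for time in control livers. Over both treatments edgeR called 0 of 24 for time, with 0 at an unadjusted p under 0.05, beside 3.68% and 20.4% of all tested transcripts. Without that library Elovl3, a fatty acid elongase, was at 0.79 (log2) in this comparison.

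Among female-biased genes 2, 10, 11 and 5 of 21 had an unadjusted edgeR p under 0.05, in the order of comparisons given for male-biased genes. Over all tested transcripts the shares were 2.12%, 6.51%, 12.9% and 12.6%. The 10 and the 11 come from comparisons that include control ZT18 replicate 1. After adjustment 1 of 21 rose with time in control livers, where 0.524% of all transcripts were called. This was Fmo2, a flavin-containing monooxygenase, at 4.61 and 4.84 CPM at ZT6 and 30.7 and 16.4 at ZT18 in control livers, with 5.47 and 6.68 at ZT6 and 16.0 and 12.0 at ZT18 under sudachitin. Both treatments had more Fmo2 at ZT18. The difference was 2.32 ± 0.31 in control (edgeR adjusted p = 0.022) and 1.2 ± 0.3 in sudachitin livers (adjusted p = 0.16). The list's median was 1.2 for time in control and -0.99 for sudachitin at ZT18, and 0.42 and -0.46 without control ZT18 replicate 1. Without that library Fmo2 rose by 1.79 in control livers (adjusted p = 0.029) and by 1.19 in sudachitin livers (adjusted p = 0.036). Over both treatments 2 of 21 rose, where 3.68% of all transcripts were called. Fmo2 rose by 1.76 ± 0.27 (edgeR adjusted p = 0.011), and by 1.43 without that library (adjusted p = 0.0029). The other was Cyp2b10, a cytochrome P450 with 1 or 2 counts in each ZT6 library and 48, 6, 15 and 12 in the ZT18 libraries (control replicates first), which alone carried it past the filter. Its fitted difference was 3.44 ± 0.7 (adjusted p = 0.034), and 2.54 without control ZT18 replicate 1 (adjusted p = 0.023), and its size depends on the prior count.

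The genes outside the axis whose levels ran most like each member over the 8 livers were found by Pearson's r of log2 CPM. They came from 8920 tested genes with a mean of at least 5 CPM, which left out the members and predicted genes. Between the tested members themselves r ran from -0.9 (Cish with Bcl6) to 0.94 (Socs2 with Onecut1). The 8 livers share their treatment groups and times, r over 8 points is loose, and the highest of many values is high by selection, so these are given as a description. For Cish they were Wsb1 (r = 0.98), Grpel2 (0.964) and Arid5b (0.956), for Socs2 Slc25a30 (0.941), B4galt1 (0.935) and Nfkbia (0.931), and for Onecut1 Rgs3 (0.966), Pex26 (0.964) and Ppp4r3a (0.951). Bcl6 ran most like Itpa (0.934), Nutf2 (0.93) and Dtymk (0.929). For Ghr they were Kctd20 (0.996), Mn1 (0.976) and Casp9 (0.97), for Stat5b Slc39a7 (0.984), Gorasp2 (0.982) and Plpp1 (0.98), and for Stat5a Ppa2 (0.952), Cox19 (0.948) and Slc36a4 (0.938). Igf1 ran most like Mepce (0.965), Fetub (0.951) and Leng1 (0.941), and Igfals most like Prpf6 (0.948), Larp4b (0.939) and Keg1 (0.934). None of the 8920 genes, which exclude the members, stood among the nearest 3 of more than 1 member.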

How the data were processed

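Liver RNA of 8 mice was sequenced from poly(A)-selected libraries without strand, as 150-base pairs on a NovaSeq instrument from 2 µg of RNA with an integrity number above 9.0, per the labels' protocols. Trimmomatic 0.39, STAR 2.7.2a and HOMER (version not given) are named, with GRCm38 (mm10), in the submitters' processing notes, which do not give their roles. The authors deposited estimated counts in exons per transcript, in steps of 0.5 and not normalized, per the file headers and the values. They were rounded to whole numbers, 0.5 upwards, for testing. The authors also deposited FPKM, which equal the counts divided by exon length and header total to within 4e-11. The sources used here do not state whether strand was used or how reads with several positions were treated.

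Tests on counts used edgeR 4.0.16 in R 4.3.3: TMM factors (0.966 to 1.016), the default filter by group (14506 of 55421 transcripts), the quasi-likelihood F test, all 8 libraries with 4 group means or an additive model of treatment and time, and Benjamini-Hochberg adjustment over all tested transcripts at 0.05. The SE is the size of the log2 difference divided by the square root of F. The script was checked on simulated data. Groups came from the titles. Files of the 2 mice of a group differed beyond sampling noise (chi-square over degrees of freedom, 17.5 to 58.8). Folds between mice are ratios of CPM, ranked on log2(CPM + 0.1). Alternatives were DESeq2 1.42.0, other scalings and filters, only the groups compared, a replicate block, limma 3.58.1 on log2(FPKM + 0.1) and log2(FPKM + 1), and leaving out each library. The members and lists (other growth hormone and IGF signalling, male-biased, female-biased, hepatocyte, macrophage, stellate, endothelial, cholangiocyte, lymphocyte, neutrophil, sex chromosome and acute-phase genes) were chosen with earlier results of these data known. All members are named, with up to 4 genes of smallest p per comparison from the first 3 other lists and the 3 genes most like each member. A result for 1 listed gene is not reported here. With 2 mice a group, the main edgeR p-values rest on a spread between mice that was pooled over the 4 groups and drawn towards that of other genes.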

Additional observations from a re-analysis of the deposited data

Results flagged for a closer look

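Igfals and Socs2 moved in opposite directions with time under the 2 treatments: both control ZT18 livers were below both control ZT6 livers, and both sudachitin ZT18 livers were above both sudachitin ZT6 livers. They were picked from the tested members by this pattern. Of all tested transcripts, the times did not overlap for 42.4% in control and 45.9% in sudachitin livers. The share with no overlap in both and opposite directions was not computed. The difference between the time effects was 0.75 for Igfals and 3.88 for Socs2 (log2, sudachitin minus control), and the edgeR test of that difference gave an adjusted p of 1 for each. For Socs2 the 2 sudachitin ZT6 livers differed by 9.53 times, and for Igfals the mice of each group were within 1.14 times of each other.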

How the results depend on the processing

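No member passed the edgeR test in any of the 7 comparisons, and none did under DESeq2, other scalings, the 5 CPM filter, only the groups compared, the replicate block, limma or without any 1 library. Without a filter on low counts 20 member calls appeared, 16 of them among 900 alternative values; that fit, on 28464 transcripts, had infinite prior degrees of freedom (4.62 otherwise), so a gene's own spread carried no weight. Of the 900 values 827 kept direction and call and 57 reversed. DESeq2 put Socs2 at -0.04 over time in both treatments. limma on log2(FPKM + 0.1) put Cish at -0.20 at ZT6, Ghr at -0.01 and Stat5b at -0.03 at ZT18, and over time in both treatments Igfals at -0.02, Cish at 0.16 and Bcl6 at 0.08; on log2(FPKM + 1) these were -0.01, -0.03, -0.02, 0.00 and 0.01 from Ghr on. The cause was not tested.

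Ranges on leaving out 1 library, for members that changed sign, were as follows. Sudachitin at ZT6: Cish -2.92 to 2.19, Bcl6 -1.11 to 2.17, Onecut1 -2.85 to 0.57, Igf1 -0.16 to 0.08 and Stat5b -0.14 to 0.00. Sudachitin at ZT18: Ghr -0.05 to 0.15 and Stat5a -0.35 to 0.10. Sudachitin over both times: Ghr -0.01 to 0.08, Socs2 -0.11 to 1.40 and Stat5b -0.04 to 0.02. Time in control: Cish -2.30 to 0.41, Bcl6 -0.40 to 2.48, Igf1 -0.48 to 0.06 and Stat5a -0.08 to 0.30. Time in sudachitin livers: Cish -0.67 to 3.91, Bcl6 -1.64 to 0.22 and Stat5a -0.02 to 0.43. Time in both: Socs2 -0.81 to 0.74, Cish -1.13 to 0.61, Onecut1 -0.66 to 0.92, Bcl6 -0.75 to 0.34, Igf1 -0.01 to 0.22 and Igfals -0.07 to 0.13.

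Counts of all called transcripts were 0 and 2 (sudachitin at ZT6 and ZT18), 76 and 27 (time in control and sudachitin livers), 0 (interaction), 534 (time in both) and 3 (sudachitin over both times). In that order DESeq2 gave 9, 49, 262, 274, 14, 942 and 15, and no filter 67, 488, 881, 861, 259, 1629 and 309. Only the groups compared gave 10, 0, 4 and 53 for the first 4, limma gave 0 at ZT18 and 41 for time in control with either offset. The replicate block gave 1, 0 and 43 for the first 3. Deviations of same-numbered mice correlated at -0.2 to 0.28 over 6 pairs of groups. With 2 mice a group, this cannot decide whether some same-numbered mice shared a batch. Without 1 library the counts were 0 to 3, 0 to 194, 5 to 323, 1 to 185, 0 to 13, 164 to 1048 and 2 to 6, and 0 members throughout. With 1 library left in a group, its spread was taken from the other groups.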

Other observations

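The acute-phase genes, most of which encode proteins secreted by the liver in inflammation, were taken from a list of 16. All were tested, and for sudachitin at ZT6 16 of 16 had a difference above 0, with a median of 0.53 (log2; -0.01 over all tested transcripts). edgeR called 0 of 16, with 7 at an unadjusted p under 0.05, beside 0% and 2.12% of all tested transcripts. Summed, they came to 19400 and 17600 CPM at ZT6 and 17500 and 13900 at ZT18 in control livers, with 23400 and 22600 at ZT6 and 22200 and 15500 at ZT18 under sudachitin. These sums are carried by the most abundant genes of the list. As a median over the list of log2(CPM + 0.1) minus the gene's median over the livers, sudachitin ZT6 replicate 1 was highest, at 0.36. The order of the livers, by sum or by median, differed from that of Cish, Socs2 and Onecut1, for which sudachitin ZT6 replicate 1 was the lowest.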
